A study of Mus musculus with 6 samples.

Results

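The subcortical maternal complex genes examined here were Nlrp5, Ooep, Tle6, Khdc3, Padi6, Nlrp2 and Zbed3, taken by gene name from the table of FPKM values (fragments per kilobase of gene length per 1000000 fragments). They made up 7 of the 53023 genes of that table. All 7 were tested, as were 16100 genes in total that reached an FPKM of 1 in 2 or more libraries. Single-gene transcript levels were compared between two-cell mouse embryos of the ICR strain that received mRNA for the SUMO E3 ligase PIASy or for its RING finger mutant, and embryos that were not injected.

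The proteins of this complex accumulate in the growing oocyte and lie beneath the cortex of the egg and of the cleaving embryo, mostly away from the contacts between blastomeres. NLRP5, OOEP, TLE6 and KHDC3 form its core, and mouse eggs lacking a core gene or Padi6 generally give embryos that stop or falter in early cleavage. The transcripts are made in the oocyte, and most are degraded around fertilization while the proteins remain, so a transcript level in a two-cell embryo is not a protein level.

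Each of 3 groups gave 2 libraries, and each library pooled 5 embryos collected at 28 h post-insemination (hpi). The non-injection group received no mRNA. The PIASy-WT group received mRNA for PIASy, the product of Pias4, and the PIASy-Mut group received mRNA for PIASy with the C335F substitution in its RING finger. Both mRNAs encoded mCherry-HA fusions and were injected at 100 ng/µl from 1.5 to 3 hpi. Injected embryos were kept if they fluoresced at 9 hpi, and all embryos were cultured in KSOM medium. The study describes the libraries of a group as biological replicates. Nothing in the labels says whether they came from separate cultures, so P-values measure only the spread between these libraries. No group was injected with an unrelated mRNA. In both comparisons with non-injection, the injection and the selection of fluorescent embryos therefore cannot be told apart from PIASy-WT or PIASy-Mut.

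Promoter windows of 300 bases, reaching from 250 bases before to 50 bases after an annotated start, are shown for Zbed3, Ooep and Nlrp2, because these 3 genes were lowest together in 1 library. The windows come from RefSeq on GRCm38.p6. Capitals mark each E-box, CANNTG, the motif that basic helix-loop-helix factors such as the oocyte factor FIGLA can bind.
Zbed3 (first of 3 windows), chr13:95323355-95323654, plus strand: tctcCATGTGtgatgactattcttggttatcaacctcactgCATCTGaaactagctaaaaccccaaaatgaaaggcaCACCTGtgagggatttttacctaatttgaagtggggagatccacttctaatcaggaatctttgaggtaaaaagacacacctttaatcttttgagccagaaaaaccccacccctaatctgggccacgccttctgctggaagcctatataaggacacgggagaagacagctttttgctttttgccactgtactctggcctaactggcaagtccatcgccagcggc
Ooep, chr9:78378539-78378838, minus strand: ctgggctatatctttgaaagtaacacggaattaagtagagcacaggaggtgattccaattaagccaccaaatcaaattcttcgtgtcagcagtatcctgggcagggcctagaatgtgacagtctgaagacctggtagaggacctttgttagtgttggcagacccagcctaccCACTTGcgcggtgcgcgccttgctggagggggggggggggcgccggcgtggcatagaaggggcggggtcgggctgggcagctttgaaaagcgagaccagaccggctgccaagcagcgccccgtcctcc
Nlrp2, chr7:5350986-5351285, minus strand: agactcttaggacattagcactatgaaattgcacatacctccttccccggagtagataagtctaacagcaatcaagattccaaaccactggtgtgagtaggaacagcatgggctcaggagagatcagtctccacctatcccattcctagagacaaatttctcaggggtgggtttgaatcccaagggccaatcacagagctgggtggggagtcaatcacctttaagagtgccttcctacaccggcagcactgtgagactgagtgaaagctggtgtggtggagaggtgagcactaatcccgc
The first Zbed3 window held 3 E-boxes, the Ooep window held 1 and the Nlrp2 window held 0. All 7 genes were matched to RefSeq, with 11 windows in all, and at least 1 E-box was found in 10 of the 11 (90.9%), all but that of Nlrp2. An E-box was present in 72.3% of the 32851 promoter windows of the table. The homeobox letters TAATTG or TAATTA, bound by NOBOX, were found in 3 of the 11 windows (27.3%) and in 12.4% of all windows. A TATA box, TATAAA, was found in 2 of the 11 windows (18.2%) and in 13.6% of all windows. Both strands were searched for each motif, the E-box and homeobox letters can overlap, and each match is a description of the letters only.

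The libraries held 871663 to 1363928 fragments on genes. A level of 3 fragments, taken as the limit of detection, equalled 2.20 to 3.44 counts per 1000000 fragments on genes (CPM). Pias4 stood at 2.98 and 3.59 FPKM in non-injection and at 579 to 862 FPKM in the 4 injected libraries, matching the labels of injection. The level of Pias4 does not tell PIASy-WT from PIASy-Mut. All 7 two-cell markers matched by name were detected, with a summed level of 1177 to 2629 CPM that was lowest in both PIASy-WT libraries. The 11 oocyte and egg markers summed to 7952 and 8891 CPM in non-injection, to 5598 and 10665 CPM for PIASy-Mut 1 and 2, and to 18329 and 17028 CPM for PIASy-WT 1 and 2. Of 12 cumulus and granulosa markers, 9 had at most 3 fragments in every library and the sum was 12.2 to 23.3 CPM, lowest in both PIASy-WT libraries. The 4 sperm markers summed to 1.94 to 4.40 CPM. By limma 1 marker each of the two-cell list (Tcstv3, -1.39 against PIASy-Mut, adjusted P = 0.0499), the oocyte list (Zp3, -1.57 and -1.67 against non-injection and PIASy-Mut, adjusted P = 0.0292 and 0.0240) and the cumulus list (Amhr2, -1.86 against non-injection, adjusted P = 0.0427) was lower in PIASy-WT, of 7, 11 and 2 tested, where 5.76% and 6.01% of all genes were called lower against non-injection and PIASy-Mut. With 1 library left out, the differences from non-injection ran from -1.65 to -1.49 for Zp3 and from -2.04 to -1.68 for Amhr2. Those from PIASy-Mut ran from -1.75 to -1.59 for Zp3 and from -1.65 to -1.13 for Tcstv3. Across 17 alternatives of filter, scaling, fit and libraries, Zp3 passed in 11 and 10, Amhr2 in 9 and Tcstv3 in 4. Of the 7 two-cell markers 6 had differences below 0 in both comparisons of PIASy-WT, and limma voom called 2 lower in each, as it did 1 of the 2 cumulus markers against non-injection. Most oocyte markers went the other way from Zp3, with differences above 0 for 8 and 9 of 11 in the comparisons of PIASy-WT, and limma voom called 3 higher and 1 lower in each (16.8% and 15.0% of all genes). Without PIASy-Mut 1, 4 of 11 passed against non-injection (18.0% of all genes), with Bmp15 (1.55), Btg4 (1.40) and Gdf9 (1.29) higher and Zp3 (-1.57) lower (adjusted P = 0.0129, 0.0136, 0.0174 and 0.0143). PIASy-Mut 1 had the lowest oocyte marker sum and was also the lowest library for several genes described below. The part of these marker levels in the results was not tested.

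Zbed3 dominated the group, and the other genes lay far below it. By mean FPKM the order was Zbed3, Ooep, Padi6, Nlrp5, Tle6, Nlrp2 and Khdc3. Zbed3 alone carried 81.6% to 94.9% of the summed FPKM of the 7 genes in a library and 0.135% to 0.907% of all fragments. Among protein-coding genes its rank was 9 to 53. The lowest library of Zbed3, at 604 FPKM, lay above the highest of Ooep, at 155 FPKM. The same held for Padi6 above Nlrp5 (20.9 against 18.5 FPKM) and for Tle6 above Nlrp2 (9.58 against 8.18 FPKM). The neighbours Ooep and Padi6, Nlrp5 and Tle6, and Nlrp2 and Khdc3 overlapped, and each pair kept its order in 5 of 6 libraries. The exceptions were PIASy-Mut 1, where Padi6 exceeded Ooep and Khdc3 exceeded Nlrp2, and non-injection 2, where Tle6 exceeded Nlrp5. Khdc3 and Nlrp2 rested on 8 to 15 and 8 to 33 fragments per library, so counting error alone is wide for them, whereas Zbed3 rested on 1390 to 12028. Intervals cover counting error only, since PCR copies were not told apart.

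**Figure D1:**
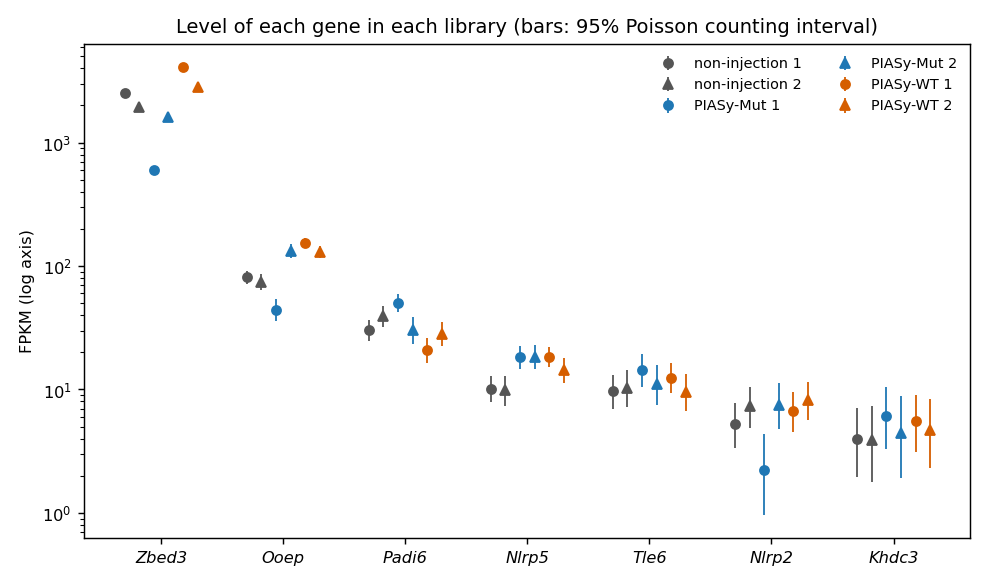
FPKM of each gene (log axis) in each library, with circles for replicate 1, triangles for replicate 2, a colour per group and bars for the 95% exact Poisson interval of the fragments. Zbed3 lies between 604 and 4068 FPKM, above every other gene in every library, and PIASy-Mut 1 is the lowest point for Zbed3, Ooep and Nlrp2.

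The first comparison asked whether embryos injected with PIASy-WT mRNA differed in these maternal transcripts from non-injected embryos. Zbed3, Ooep, Nlrp5 and Khdc3 were higher in both PIASy-WT libraries than in both non-injection libraries, and Padi6 was lower, but none passed the test. With limma, 0 of 7 genes had an adjusted P of at most 0.05, where 6.80% of all 16100 genes did (1.03% higher and 5.76% lower), and 0 of 7 had an unadjusted P under 0.05 (28.2% of all genes). With limma voom on recovered fragments 0 of 7 passed as well, where 16.8% of all genes did. Groups did not overlap for 5 of 7 genes, against 61.8% of all genes. The 4 higher genes compare with 29.8% of all genes and the 1 lower gene with 31.9%. The median log2 difference was 0.31 for the 7 genes and 0.01 for all genes tested.

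Both forms of PIASy were compared next, which addresses the effect of the RING finger among injected embryos. Zbed3 was higher and Padi6 lower in both PIASy-WT libraries than in both PIASy-Mut libraries, and the other 5 genes overlapped. By limma 0 of 7 genes passed, where 6.83% of all genes did (0.820% higher and 6.01% lower), and 1 gene, Zbed3, had an unadjusted P under 0.05 (27.7% of all genes). With limma voom 1 of 7 genes, Zbed3, passed (adjusted P = 0.00311), where 15.0% of all genes did. The 2 genes without overlap compare with 56.5% of all genes, 25.5% higher and 31.0% lower. The median log2 difference was -0.04 for the 7 genes and -0.03 for all genes. This comparison shares the PIASy-WT libraries with the first.

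The third comparison, PIASy-Mut against non-injection, shares libraries with both others. Nlrp5, Tle6 and Khdc3 were higher and Zbed3 lower in both PIASy-Mut libraries. By limma 0 of 7 genes passed, where 0.00621% of all genes did, that is 1 gene, Pias4. An unadjusted P under 0.05 was found for 1 gene, Nlrp5 (4.46% of all genes), and limma voom called 0 of 7. Groups did not overlap for 4 of 7 genes, against 25.7% of all genes (3 higher, 15.0%, and 1 lower, 10.8%), and the median log2 difference was 0.18 against 0.04. An exact two-sided permutation test of 2 against 2 libraries reaches 0.333 at the lowest and was not used.

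**Figure D2:**
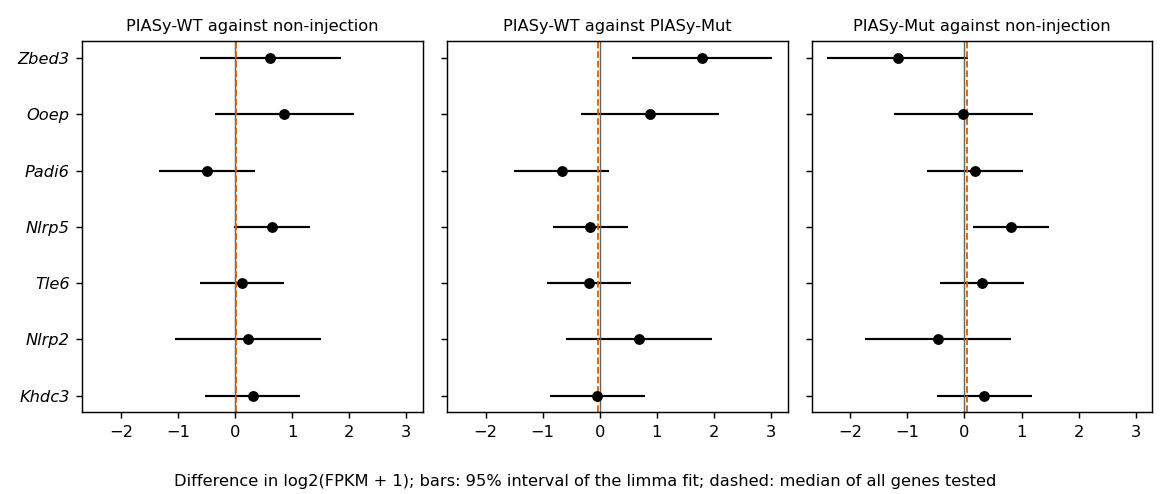
Difference in log2(FPKM + 1) of each gene in each of the 3 comparisons, with bars for the 95% interval of the limma fit and a dashed line at the median of all genes tested. The intervals include 0 except for Zbed3 in PIASy-WT against PIASy-Mut (0.56 to 3.02) and Nlrp5 in PIASy-Mut against non-injection (0.15 to 1.48).

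Nlrp5 (ENSMUSG00000015721.18, chr7:23385889-23441922, plus strand, mm10) encodes MATER, a leucine-rich repeat protein of the core. It stood at 10.1 and 9.85 FPKM in the non-injection libraries, 18.2 and 18.5 with PIASy-Mut, and 18.4 and 14.4 with PIASy-WT. All 4 injected libraries lay above both non-injected ones, and PIASy-Mut and PIASy-WT overlapped. The log2 difference was 0.65 ± 0.27 (SE, adjusted P = 0.184) for PIASy-WT and 0.81 ± 0.27 (adjusted P = 1.0, unadjusted P = 0.0239) for PIASy-Mut against non-injection. Between PIASy-WT and PIASy-Mut it was -0.16 ± 0.27, with a 95% interval from -0.83 to 0.50, and its sign turned with quantile normalization (0.18) and without PIASy-WT 2 (0.0032). Of its 50-base sequences 6.55% occur in other genes, mostly in the pseudogene Nlrp5-ps.

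Ooep (ENSMUSG00000032346.7, chr9:78376109-78378725, minus strand) encodes FLOPED, a core protein with an RNA-binding KH fold. Its levels were 80.9 and 74.9 FPKM in the non-injection libraries, 44.4 and 133 with PIASy-Mut, and 155 and 131 with PIASy-WT. Both PIASy-WT libraries lay above non-injection, while the PIASy-Mut libraries lay on either side of non-injection, 2.98-fold apart. The log2 difference of PIASy-WT was 0.86 ± 0.50 (adjusted P = 0.308) against non-injection and 0.88 ± 0.50 (adjusted P = 0.311) against PIASy-Mut. Against non-injection Ooep passed when either PIASy-Mut library was left out of the shared fit (adjusted P = 0.0343 without PIASy-Mut 1 and 0.0361 without PIASy-Mut 2). In these fits 18.0% and 17.8% of all genes passed. Against PIASy-Mut the difference was 0.10 (adjusted P = 0.813) without PIASy-Mut 1, a fit that called 0 of all 15316 genes in this comparison, and 1.66 (adjusted P = 0.0155) without PIASy-Mut 2. For PIASy-Mut against non-injection the log2 difference was -0.02, and it became 0.76 without PIASy-Mut 1 and 0.038 without non-injection 1.

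Tle6 (ENSMUSG00000034758.12, chr10:81590904-81601073, minus strand), a member of the Groucho family of corepressors that serves the core of the complex, was the steadiest gene of the group. It ran from 9.58 to 14.4 FPKM, with 9.73 and 10.3 in the non-injection libraries, 14.4 and 11.1 with PIASy-Mut, and 12.5 and 9.58 with PIASy-WT. PIASy-WT spanned both non-injection values. Log2 differences were 0.12 ± 0.30 (95% interval from -0.62 to 0.85) for PIASy-WT and 0.31 ± 0.30 (from -0.42 to 1.05) for PIASy-Mut against non-injection. For PIASy-WT against PIASy-Mut it was -0.20 ± 0.30. The first of these turned to -0.059 without PIASy-WT 1 and was 0.29 without PIASy-WT 2. The second was 0.14 without PIASy-Mut 1 and 0.49 without PIASy-Mut 2. The last was -0.025 without PIASy-Mut 1, -0.024 without PIASy-WT 2 and -0.37 without either other injected library, and turned to 0.11 with quantile normalization.

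Khdc3 (ENSMUSG00000092622.8, chr9:73101836-73104438, plus strand) encodes FILIA, a KH-domain protein tied to faithful chromosome segregation in cleavage embryos. It was listed at 3.93 and 3.88 FPKM in the non-injection libraries, 6.14 and 4.48 with PIASy-Mut, and 5.52 and 4.67 with PIASy-WT. All injected libraries lay above non-injection, by margins smaller than the counting intervals. The log2 differences against non-injection were 0.31 ± 0.34 for PIASy-WT and 0.35 ± 0.34 for PIASy-Mut, the latter 0.16 without PIASy-Mut 1 and 0.54 without PIASy-Mut 2. Between the injected groups it was -0.04 ± 0.34, and this sign turned with median-of-ratios scaling (0.055), quantile normalization (0.19), without PIASy-Mut 1 (0.15) and without PIASy-WT 2 (0.060). Of its 2050 exonic bases, 790 (38.5%) also lie in exons of Gm20509, a gene on the same strand that was listed at 0 in all 6 libraries. How reads from this stretch were assigned is not given in the sources used here, so the level of Khdc3 is uncertain.

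Padi6 (ENSMUSG00000040935.12, chr4:140727355-140742643, minus strand) belongs to the peptidylarginine deiminase family and is needed for the cytoplasmic lattices of the egg. Across the libraries it was high where Ooep was low and low where Ooep was high. Its levels were 30.4 and 39.1 FPKM in the non-injection libraries, 50.5 and 30.4 with PIASy-Mut, and 20.9 and 28.2 with PIASy-WT. Both PIASy-WT libraries were the lowest of the 6. The log2 difference of PIASy-WT was -0.49 ± 0.34 (adjusted P = 0.395) against non-injection and -0.67 ± 0.34 (adjusted P = 0.267) against PIASy-Mut. PIASy-Mut and non-injection differed by 0.18 ± 0.34, which became -0.18 without PIASy-Mut 1. With 1 library left out, the difference of PIASy-WT ran from -0.70 (without PIASy-WT 2) to -0.28 (without PIASy-WT 1) against non-injection, and from -1.03 (without PIASy-Mut 2) to -0.31 (without PIASy-Mut 1) against PIASy-Mut. Over all 17 alternatives the highest values were -0.19 against non-injection and -0.29 against PIASy-Mut.

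Nlrp2 (ENSMUSG00000035177.8, chr7:5298547-5351035, minus strand), a maternal-effect relative of Nlrp5, lies 18.0 Mb from it. It stood at 5.22 and 7.31 FPKM in the non-injection libraries, 2.21 and 7.52 with PIASy-Mut, and 6.67 and 8.18 with PIASy-WT. PIASy-Mut 1 was 2.36-fold below the next lowest library, on 8 fragments, and the other 5 libraries lay between 5.22 and 8.18 FPKM. The log2 difference of PIASy-WT was 0.22 ± 0.52 against non-injection (0.014 without non-injection 1, 0.43 without non-injection 2, 0.092 without PIASy-WT 2 and 0.35 without PIASy-WT 1) and 0.68 ± 0.52 (adjusted P = 0.445) against PIASy-Mut, and the latter was -0.022 without PIASy-Mut 1 and 1.39 without PIASy-Mut 2. That of PIASy-Mut against non-injection was -0.46 ± 0.52 and became 0.24 without PIASy-Mut 1, -1.16 without PIASy-Mut 2 and -0.25 without non-injection 2. The Nlrp2 start lies inside Gm5065, which runs on the opposite strand (chr7:5350537-5360682). The gene spans overlap by 499 bases and share 0 exonic bases. Gm5065 was likewise lowest in PIASy-Mut 1, with 8.92 FPKM there, 21.6 and 25.5 without injection, 25.3 in PIASy-Mut 2, and 38.0 and 39.5 for PIASy-WT. The library kits do not mark strand, and 105 exonic bases of Nlrp2 also lie in the opposite-strand pseudogene Gm18757, so reads there cannot be told apart.

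Zbed3 (ENSMUSG00000041995.8, chr13:95323612-95337841, plus strand) encodes a BED zinc finger protein that associates with the complex and is linked to even cleavage divisions. It had the widest range of the 7 genes, 6.74-fold from lowest to highest library. Its levels were 2541 and 1937 FPKM in the non-injection libraries, 604 and 1602 with PIASy-Mut, and 4068 and 2841 with PIASy-WT. The 3 groups did not overlap, with PIASy-Mut lowest and PIASy-WT highest. PIASy-WT exceeded PIASy-Mut by 1.79 ± 0.51 on the log2 scale, that is 3.45-fold with a 95% interval from 1.47 to 8.12, and the adjusted P was 0.0863. The difference was 1.09 (adjusted P = 0.160) without PIASy-Mut 1, where 0 of all 15316 genes passed, and 2.49 (adjusted P = 0.0151) without PIASy-Mut 2. It passed in 3 of 17 alternatives, with adjusted P up to 0.602. The other passing fits were the FPKM filter of 5 (adjusted P = 0.0463) and limma voom (1.82, adjusted P = 0.00311), and the 3 fits called 19.9%, 20.4% and 15.0% of all genes. PIASy-WT exceeded non-injection by 0.62 ± 0.51 (adjusted P = 0.465), and PIASy-Mut differed from non-injection by -1.17 ± 0.51 (95% interval from -2.41 to 0.06, adjusted P = 1.0). The first of these ran from 0.36 without PIASy-WT 1 to 0.87 without PIASy-WT 2, and the second from -0.47 without PIASy-Mut 1 to -1.88 without PIASy-Mut 2. The small nucleolar RNA gene Snora47, within the span of Zbed3 but in 0 of its exonic bases, stood at 207 and 103 FPKM in the non-injection libraries, 112 and 341 with PIASy-Mut, and 623 and 523 with PIASy-WT. The ratio of Zbed3 to Snora47 was 12.3 and 18.9 in non-injection and 4.70 to 6.53 in the 4 injected libraries. Snora47 rested on 16 to 114 fragments per library, and reads there were not told apart from unspliced Zbed3 RNA.

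The libraries of PIASy-Mut differed more than those of either other group for 5 of the 7 genes, all but Nlrp5 and Tle6. How often this held over all genes was not counted, so it is not read as a trait of these genes. PIASy-Mut 2 exceeded PIASy-Mut 1 by 2.65-fold for Zbed3, 2.98-fold for Ooep and 3.40-fold for Nlrp2. The ratio was 1.02 for Nlrp5 and below 1 for Tle6 (0.772), Khdc3 (0.729) and Padi6 (0.601). PIASy-Mut 1 was therefore the lowest of 6 libraries for 3 genes, the highest for another 3 and between for Nlrp5. In non-injection the ratio of replicate 2 to replicate 1 ran from 0.762 (Zbed3) to 1.40 (Nlrp2), and in PIASy-WT from 0.698 (Zbed3) to 1.35 (Padi6). Levels are shares of each library, so less RNA of a gene per embryo and more RNA of other genes cannot be told apart, nor can fewer embryos holding the transcript.

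**Figure D3:**
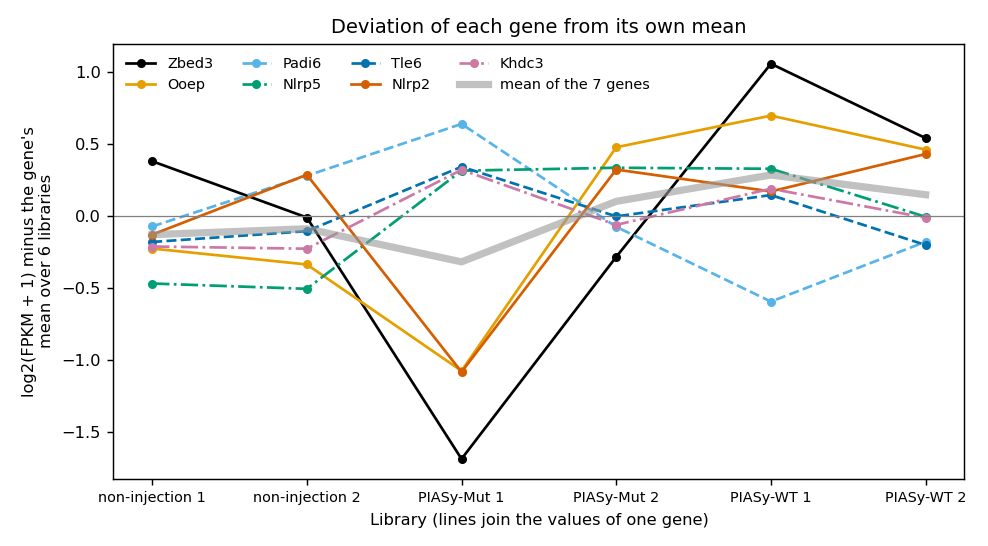
log2(FPKM + 1) of each gene minus its own mean over the 6 libraries, with lines joining the values of a gene only to guide the eye and a thick grey line for the mean of the 7 genes. Zbed3, Ooep and Nlrp2 reach -1.69, -1.08 and -1.09 in PIASy-Mut 1, where Padi6 is at 0.64.

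Ratios between genes of a library do not depend on its total. The ratio of Padi6 to Ooep was 0.376 and 0.522 without injection, 1.14 and 0.229 with PIASy-Mut, and 0.135 and 0.215 with PIASy-WT. It was lowest in both PIASy-WT libraries and highest in PIASy-Mut 1. That of Zbed3 to Ooep was 31.4 and 25.9 without injection, 13.6 and 12.1 with PIASy-Mut, and 26.3 and 21.7 with PIASy-WT. Although both genes differed widely between the PIASy-Mut libraries, their ratio was similar in these and lower than in the other 4 libraries.

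**Figure D4:**
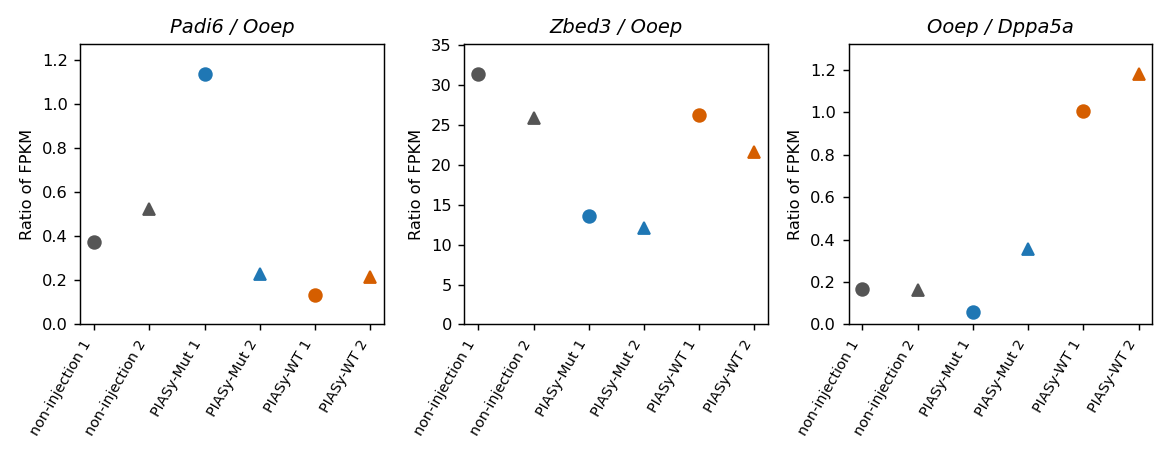
Ratios of FPKM within each library (linear axes from 0), with a colour per group, circles for replicate 1 and triangles for replicate 2. The ratio of Ooep to Dppa5a is 1.01 and 1.18 in PIASy-WT and at most 0.358 in the other libraries.

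Relatives of these genes by family were read next, as 16 genes of which 9 were tested. One of the 9, Dppa5a, a KH-domain gene on chromosome 9 whose nearest edge lies 7932 bases from Ooep, fell in PIASy-WT, where 5.76% and 6.01% of all genes were called lower against non-injection and PIASy-Mut. Over the list the medians were -0.25 against non-injection and 0.12 against PIASy-Mut, and 4 and 2 of the 9 had an unadjusted P under 0.05 (28.2% and 27.7% of all genes). By limma voom 1 was higher and 2 lower in the first and 1 lower in the second (16.8% and 15.0% of all genes). The levels of Dppa5a were 481 and 467 FPKM in the non-injection libraries, 770 and 371 with PIASy-Mut, and 154 and 111 with PIASy-WT. Both PIASy-WT libraries were below all others. The log2 difference was -1.85 ± 0.39 (adjusted P = 0.0477) against non-injection and -2.02 ± 0.39 (adjusted P = 0.0403) against PIASy-Mut. Under the 17 alternatives the first passed in 7 and the second in 6, with adjusted P up to 0.266 and 0.231. With 1 library left out, the difference ran from -2.08 (without PIASy-WT 1) to -1.62 (without PIASy-WT 2) against non-injection. Against PIASy-Mut it ran from -2.55 (without PIASy-Mut 2) to -1.50 (without PIASy-Mut 1). Whether a call held in these fits rests on an assumed spread, so it is not read as a trait of Dppa5a. The ratio of Ooep to Dppa5a was 0.168 and 0.160 without injection, 0.0577 and 0.358 with PIASy-Mut, and 1.01 and 1.18 with PIASy-WT. Of the 50-base sequences of Dppa5a 38.6% occur in other genes, so its level is uncertain.

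Among the other Nlrp genes of the oocyte none was called by limma on log2(FPKM + 1) with all libraries. Of 11 listed, 10 were tested, and 0 were called in any comparison. The log2 difference was above 0 for 10 of 10 in both comparisons of PIASy-WT, which share libraries, beside 50.5% and 48.3% of all genes, and was 0.0058 for Nlrp4c against non-injection. The medians were 0.79 in the first and 0.70 in the second, against 0.01 and -0.03 for all genes. All 10 stayed above 0 in both comparisons with median-of-ratios scaling and with quantile normalization. In PIASy-Mut against non-injection the median was -0.01. An unadjusted P under 0.05 was found for 2, 2 and 0 of the 10 in these comparisons (28.2%, 27.7% and 4.46% of all genes), and limma voom called 3, 1 and 0, all higher, where it called 16.8%, 15.0% and 0.00621% of all genes. Without PIASy-Mut 1, a fit that called 18.0% of all genes against non-injection, 3 of them passed against non-injection, namely Nlrp14 (0.94, adjusted P = 0.0245), Nlrp4g (1.01, adjusted P = 0.0304) and Nlrp9c (0.72, adjusted P = 0.0388).

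Reported partners of the complex and regulators of F-actin, such as 14-3-3 proteins and cofilin, gave 0 calls by limma among 19 tested genes of 21, where 6.80% and 6.83% of all genes were called in the comparisons of PIASy-WT. The medians were 0.31, -0.03 and 0.08 for PIASy-WT against non-injection, PIASy-WT against PIASy-Mut and PIASy-Mut against non-injection, and 2, 3 and 0 genes had an unadjusted P under 0.05 (28.2%, 27.7% and 4.46% of all genes). By limma voom 1 gene was higher and 1 lower in each of the comparisons of PIASy-WT (16.8% and 15.0% of all genes). Without PIASy-Mut 1, 2 of 19 genes passed in the first comparison (18.0% of all genes), Rhoa at -1.45 (adjusted P = 0.0230) and Ywhae at 0.82 (adjusted P = 0.0329). With all libraries the smallest adjusted P of the list was 0.0730. The median of the second comparison turned to 0.04 with median-of-ratios scaling and 0.17 with quantile normalization.

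Maternal-effect genes outside the complex numbered 25, all tested. Trim28, a corepressor that protects imprints, fell in PIASy-WT against PIASy-Mut (-1.55, adjusted P = 0.0491), and the other 24 were not called in any comparison by limma. That 1 lower gene of 25 compares with 6.01% of all genes. By limma voom 4 of the 25 were higher and 1 lower against non-injection (16.8% of all genes in either direction), and 3 were higher and 2 lower against PIASy-Mut (15.0%). Trim28 was at 9.17 and 8.93 FPKM in the non-injection libraries, 15.8 and 10.2 with PIASy-Mut, and 3.81 and 3.56 with PIASy-WT, lowest in both PIASy-WT libraries. It passed in 4 of 17 alternatives. With 1 library left out, its difference from PIASy-Mut ran from -1.85 (without PIASy-Mut 2) to -1.26 (without PIASy-Mut 1). The medians of the list were 0.25, 0.18 and 0.10 in the order above, and 7, 7 and 0 of the 25 had an unadjusted P under 0.05 (28.2%, 27.7% and 4.46% of all genes). With quantile normalization the medians of PIASy-WT were 0.47 against non-injection and 0.45 against PIASy-Mut (0.12 and 0.11 for all genes). Without PIASy-Mut 1, 6 of 25 genes passed against non-injection (18.0% of all genes), 4 of them higher (Atg5, Btg4, Nlrp14 and Npm2) and 2 lower (Trim28 and Zar1l).

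Transcription factors of oocyte-expressed genes, among them Figla and Nobox, gave 0 calls by limma among 8 tested genes (6.80% and 6.83% of all genes in the comparisons of PIASy-WT). Their medians were 1.04, 0.84 and 0.06, and 4, 3 and 1 genes had an unadjusted P under 0.05 (28.2%, 27.7% and 4.46% of all genes). By limma voom 1 gene was lower against non-injection (16.8% of all genes in either direction), and 1 was higher and 1 lower against PIASy-Mut (15.0%). Without PIASy-Mut 1, Tbpl2 (1.13, adjusted P = 0.0294) and Taf4b (-1.48, adjusted P = 0.0209) passed against non-injection, 2 of 8 genes beside 18.0% of all genes. The lists hold known oocyte genes by design and share Nlrp14, Btg4 and Zar1 with one another or with the oocyte markers, so they are not separate evidence.

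**Figure D5:**
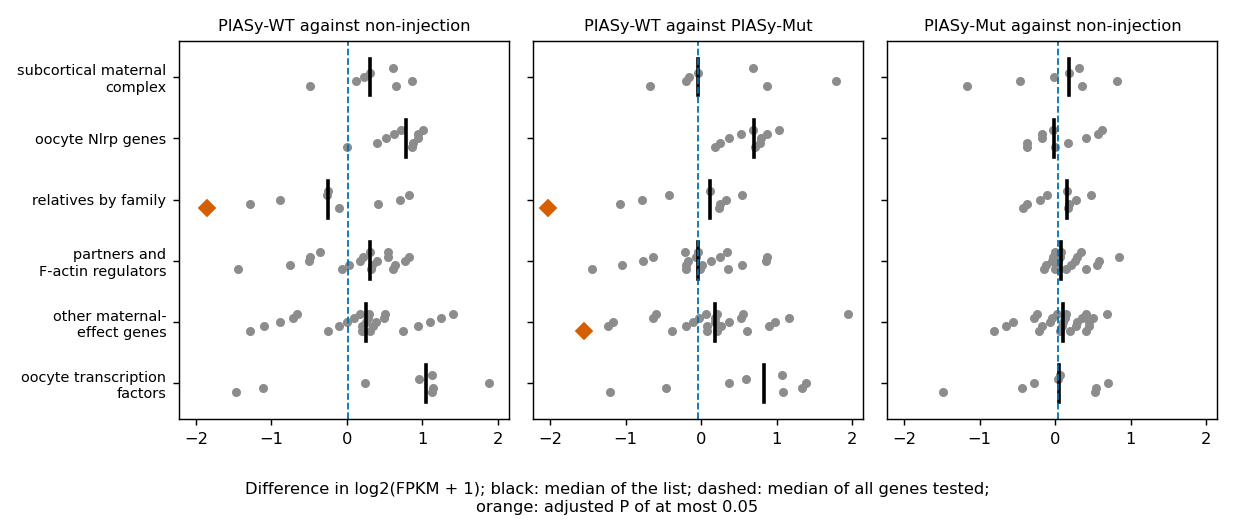
Difference in log2(FPKM + 1) of each tested gene in the complex and in 5 related lists, for the 3 comparisons, with a black bar at the median of a list, a dashed line at the median of all genes tested, and diamonds for genes with an adjusted P of at most 0.05. The diamonds are Dppa5a in both comparisons of PIASy-WT and Trim28 in PIASy-WT against PIASy-Mut, and none of the 7 complex genes is one.

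Likeness to the complex was measured as the root mean square difference between a gene's centred log2 profile and the mean centred profile of the 7 genes over 6 libraries. Among 7210 other genes the nearest were Actr1a (0.037), Ppfia1 (0.042), Cnot2 (0.046), Gna13 (0.048) and Togaram1 (0.051). The 7 genes themselves lay 0.29 (Khdc3) to 0.71 (Zbed3) from their own mean. The nearest genes were picked for the smallest distance, so no comparison with the members is drawn from them.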

How the data were processed

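Libraries were prepared from lysed embryos with the SMART-Seq v4 and Nextera XT kits. The authors trimmed reads with Trim Galore, aligned them to mm10 with STAR, summed the uniquely aligned reads of each gene with featureCounts, and deposited the resulting FPKM values as 1 table. Versions and the strand setting are not given in the sources used here. Each FPKM times its gene length was a whole multiple (tolerance 0.01) of the smallest such product of the library for 100% of values above 0, and these multiples were read as fragments. The authors added spike-in RNA, and 0 spike-in entries are in the table, so levels are shares of a library.

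Groups were compared with limma 3.58.1 (lmFit, contrasts, eBayes with a trend) in R 4.3.3 on log2(FPKM + 1) over 16100 genes and all 6 libraries, with 3 residual and 3.12 prior degrees of freedom. The pseudocount of 1 understates changes of low genes. The Benjamini-Hochberg adjustment covered all genes tested, and calls needed an adjusted P no higher than 0.05. The main test did not use counts. As an alternative, limma voom was run on the recovered fragments. The fit was also run on simulated data, where the changes put in were larger than any main-fit difference of the 7 genes. That run does not show the power of the fit for differences of the size reported here. Positions agree between the table and GENCODE M21. The 7 genes and the gene lists were chosen with earlier results of these data known. All 7 were named, and of each list the genes with an adjusted P of at most 0.05 in a comparison. Genes named only for a left-out library were chosen after their values were seen. Alternatives changed the pseudocount (0.1 or 5), the filter, the scaling, the fit, the replicate block or the libraries used. For the lists, fits without PIASy-Mut 1 and with only the 4 libraries compared were added after seeing the data.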

Additional observations from a re-analysis of the deposited data

How the results depend on the processing

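The 17 alternatives for each log2 difference included 6 fits that each left out 1 library, where a group with 1 library left is assumed to vary like the others. In PIASy-WT against non-injection the number of the 7 genes called was 0 with all libraries, 0 to 1 with a library left out, and 1 (Ooep, adjusted P = 0.0315) with only the 4 libraries compared, which called 21.1% of all 14448 genes. In PIASy-WT against PIASy-Mut it was 0 to 2 with a library left out, 1 with an FPKM filter of at least 5 and 1 with limma voom, and in both cases the gene was Zbed3. These fits called 19.9% (without PIASy-Mut 2), 20.4% and 15.0% of all genes. In PIASy-Mut against non-injection it was 0 under every alternative run. For differences that had not passed, signs turned in PIASy-WT against PIASy-Mut with quantile normalization for Nlrp5 (0.18), Tle6 (0.11) and Khdc3 (0.19), and with median-of-ratios scaling for Khdc3 (0.055). With 1 library left out, the difference in that comparison ran from -0.33 to 0.0032 for Nlrp5, from -0.23 to 0.15 for Khdc3, from -0.022 to 1.39 for Nlrp2, from 0.10 to 1.66 for Ooep, from 1.09 to 2.49 for Zbed3 and from -1.03 to -0.31 for Padi6. In PIASy-WT against non-injection that of Tle6 ran from -0.059 to 0.29. In PIASy-Mut against non-injection it ran from -0.80 to 0.76 for Ooep, from -0.18 to 0.54 for Padi6, from -1.16 to 0.24 for Nlrp2 and from -1.88 to -0.47 for Zbed3. The causes were not tested. Quantile normalization moved the median of all genes to 0.12 in PIASy-WT against non-injection and 0.11 against PIASy-Mut.

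Over all genes, the 1094 calls of PIASy-WT against non-injection became 109 without a filter on low values, 315 without a trend, 1773 with the FPKM filter of at least 5, 2702 with voom on recovered fragments, 3045 with only the 4 libraries, and 0 to 2760 with 1 library left out. The 1100 calls against PIASy-Mut became 103, 554, 1690, 2414, 0 and 0 to 3051, and 614 with quantile normalization, while unadjusted P under 0.05 held for 3927 genes with only the 4 libraries. The 1 call of PIASy-Mut against non-injection, Pias4, was lost (0 calls) without a filter and without either non-injection library. The labels do not say whether same-numbered libraries were handled together. Correlations of same-numbered deviations were 0.00, 0.09 and 0.06, which cannot settle it. With a replicate block 0, 0 and 0 of the 7 genes were called in the 3 comparisons (808, 866 and 1 of all genes). Khdc3 and Nlrp2 rested on 8 to 15 and 8 to 33 fragments per library.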
